A study of Homo sapiens with 9 samples.

Results

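The 41 genes described here are transcribed targets of p53, taken by name from a list of direct p53 targets. Of them 40 were matched to a gene ID among the 58395 genes of the RNA-seq tables, and FAS-AS1 had no matching ID and is given no value. The libraries came from HCT116, a human colorectal carcinoma line that keeps wild-type p53. Every group carried shSTBD1, a short hairpin RNA against STBD1, the glycogen-binding protein proposed as a receptor for glycogen autophagy. On that background the groups were plvx neo (the empty lentiviral vector), STBD1 WT (hairpin-resistant wild-type STBD1) and STBD1 W203C (STBD1 whose LC3-interacting region is mutated), with 3 libraries each. The cells were infected with lentivirus and drug selected, and the sources used here do not state whether each line was a pool or 1 clone. The libraries of a group are described as biological replicates, but nothing states that they came from separately made lines, so the p-values measure the spread between these libraries only.

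p53 is a transcription factor that is made continuously and destroyed by MDM2, and it accumulates when DNA damage or other stress blocks that destruction. It binds a paired sequence motif near its targets and turns on genes for growth arrest, apoptosis, DNA repair, redox control and its own removal. p21, encoded by CDKN1A, then holds cyclin-dependent kinases in check, and the DREAM complex lowers a wide set of mitotic genes. In colon cancer cells with wild-type p53 these targets have a measurable level without any added damage.

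The deposited file names call the STBD1 WT libraries W203C and the reverse, against the sample titles. The titles were followed throughout. If the file names were right, every direction between the constructs would turn around and the comparisons of the constructs with plvx neo would change places. Depth was 16881429 to 23278126 expected counts per library. STBD1 itself lay at 2.75 to 3.84 TPM (a level scaled by transcript length and library size) in plvx neo. It lay at 10.8 to 10.9 TPM in STBD1 WT and 8.37 to 10.3 TPM in STBD1 W203C. The separate entry FAM47E-STBD1 lay at 0.96 to 2.41 TPM in plvx neo. With STBD1 WT it lay at 41.5 to 46.1 TPM, and with STBD1 W203C at 34.7 to 38.4 TPM. Both entries were higher in all 6 libraries with a construct, which does not show which construct a library carried. In both, every STBD1 WT library lay above every STBD1 W203C library. The level of construct RNA and the mutation therefore cannot be told apart in STBD1 W203C against STBD1 WT. How reads of the constructs were divided between these entries was not tested. Of the colon epithelial markers EPCAM lay at 179 to 226 TPM and KRT18 at 553 to 780 TPM, whereas VIL1 reached at most 0.08 TPM and KRT20 at most 1.28 TPM. Of 5 fibroblast markers only COL1A1 reached 1 TPM, of 4 leukocyte markers only CD68, and of 3 endothelial markers none; DCN and LUM were at 0 in every library. The summed leukocyte markers, almost wholly CD68, lay at 2.18 to 2.41 TPM in plvx neo, 3.92 to 6.47 TPM with STBD1 WT and 1.33 to 2.10 TPM with STBD1 W203C. COL1A1 lay at 13.8 to 16.4 TPM in plvx neo, 16.4 to 21.6 TPM with STBD1 WT and 12.6 to 18.2 TPM with STBD1 W203C. On counts it was called higher in STBD1 WT than in plvx neo (log2 0.48, adjusted p = 9.11e-06 by edgeR) and lower in STBD1 W203C than in STBD1 WT (log2 −0.49, adjusted p = 9.07e-06), the directions that most called members took. CD68 was called in the same directions (log2 1.01 and −1.48). The part of these markers in the values below was not tested. These are bulk samples, in which fewer responding cells and less RNA per cell cannot be told apart.

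Before the levels, the sequence that p53 reads was looked for at each gene. The p53 motif is 20 bases long and consists of 2 abutting copies of a 10-base unit. It was searched within 2500 bases on either side of the start of the Ensembl canonical transcript (hg38, GENCODE v44), allowing 2 mismatches outside the fixed C and G of each unit; the limit of 2 was chosen after a search with fewer had been seen. The motif reads the same on both strands, so 1 scan covers both. It was present at 15 of 40 members (37.5%), beside 755 of 19962 protein-coding genes (3.78%). An exact copy stood at 2 members (5.00%), PLK2 and ZMAT3, beside 13 of all genes (0.0651%). The list was assembled from known p53 targets, so these shares describe the list and are no independent finding. The sequences below are a selection from the members with a motif. CDKN1A, BTG2, GADD45A, GDF15 and ZMAT3 were called higher in STBD1 WT than in plvx neo, and MDM2, AEN and PLK2 were not called there. Each is the gene's own strand with 5 flanking bases on either side, and the capitals mark the motif, whose coordinates are given. Distances are from the start of the canonical transcript. The gene coordinates given further below span the whole gene, which can begin before that start.
CDKN1A (chr6:36676449-36676468, plus strand, starting 2265 bases before the start, 2 mismatches): gtcagGAACATGTCCCAACATGTTGagctc
BTG2 (chr1:203303642-203303661, plus strand, starting 1877 bases before the start, 2 mismatches): gggtcACGCATGTTCAGGCATGCATggaat
GADD45A (chr1:67686775-67686794, plus strand, intron, 1574 bases after the start, 1 mismatch): gtacaGAACATGTCTAAGCATGCTGgggac
GDF15 (chr19:18385308-18385327, plus strand, starting 850 bases before the start, 2 mismatches): attgcCATCTTGCCCAGACTTGTCTcgaac
ZMAT3 (chr3:179070188-179070207, minus strand, intron, 1602 bases after the start, exact): tcataAAACAAGTCCAGACATGCCTaggca
MDM2 (chr12:68808923-68808942, plus strand, intron, 746 bases after the start, 2 mismatches): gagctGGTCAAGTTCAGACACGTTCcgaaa
AEN (chr15:88621306-88621325, plus strand, starting 34 bases before the start, 2 mismatches): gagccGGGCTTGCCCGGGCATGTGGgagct
PLK2 (chr5:58462274-58462293, minus strand, starting 2207 bases before the start, exact): atgagAAACATGCCTGGACTTGCCCtgcac

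CCNG1 and EDA2R had 2 motifs each, and ACER2, DDB2, RRM2B, SPATA18 and CMBL had 1 each. No motif within the window and limit was found at BBC3, TP53I3, TP53INP1, FDXR, DRAM1 or TRIAP1, which says only that these letters are not in this window. Against plvx neo, 7 of the 14 tested members with a motif were called higher in STBD1 WT, and so were 9 of the 25 without one. These are 50% and 36%, beside 13.9% of all genes. A motif is a description, and the difference between the shares with and without one was not tested.

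**Figure D1:**
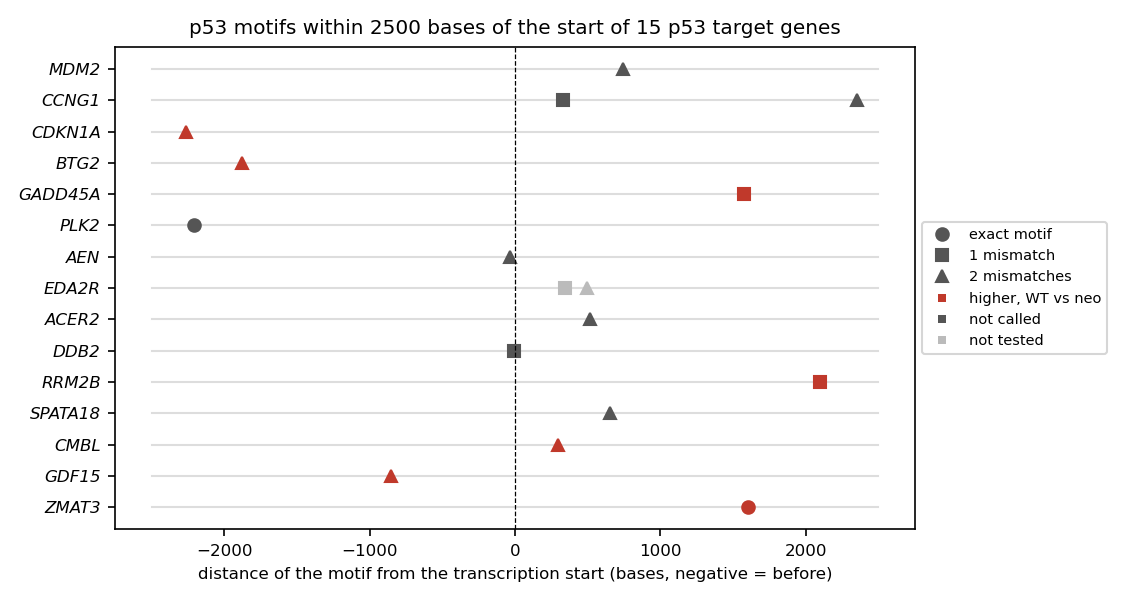
Position of each p53 motif, in bases from the start of the canonical transcript, for the 15 members that have one. Circles are exact copies, squares have 1 mismatch and triangles 2, red marks members called higher in STBD1 WT than in plvx neo, and motifs lie both before the start (CDKN1A, BTG2, GDF15, PLK2) and in introns (GADD45A, ZMAT3, MDM2).

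The members were expressed over a wide range. Over the 9 libraries, 5 members averaged at least 100 TPM, 23 lay between 10 and 100 TPM, 9 between 1 and 10 TPM and 3 below 1 TPM. At the top stood GDF15 (mean 225 TPM), CDKN1A (217 TPM) and KITLG (209 TPM), with RPS27L at 140 TPM and PLK2 at 115 TPM. At the bottom were SPATA18 (0.443 TPM), TRIM22 (0.327 TPM) and EDA2R, for which 7 of 9 libraries held no count. Within a group the TPM of a member varied by a median coefficient of variation of 9.68% in plvx neo, of 6.80% with STBD1 WT and of 7.14% with STBD1 W203C (37 members of at least 1 TPM).

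In STBD1 WT against plvx neo, 16 members rose and 2 fell among the 39 tested (46.2% called, beside 27.8% of the 15289 genes tested; 41% rose beside 13.9% and 5.13% fell beside 13.9%). Among called members averaging at least 1 TPM, the strongest rises were those of growth arrest, apoptosis and stress genes: TP53INP1, CDKN1A, BBC3 and TP53I3 rose 1.70- to 1.76-fold, BTG2 1.55-fold and GADD45A 1.54-fold. TRIM22, at 0.327 TPM on average, had a larger fitted rise of 2.91-fold on few counts. The median log2 fold change of the 39 members was 0.11, beside 0.01 over all genes. In STBD1 W203C against STBD1 WT, 9 members were lower and 4 higher among 38 (34.2% called, beside 27.9% of 15052 genes; 23.7% lower beside 13.4%, 10.5% higher beside 14.5%), with a median of −0.06 beside −0.01. In STBD1 W203C against plvx neo, 13 of 38 members were called and all 13 were higher (34.2%, beside 5.70% of 15081 genes called, 3.03% higher and 2.67% lower), with a median of 0.14 beside 0.00. The 3 comparisons share libraries, so their values stand side by side and are not independent of each other. Calls are edgeR quasi-likelihood tests with Benjamini-Hochberg adjusted p below 0.05 over all genes tested. Differences are log2 fold changes of normalised counts with the standard error (SE) of the fit, and n is 3 libraries per group.

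**Figure D2:**
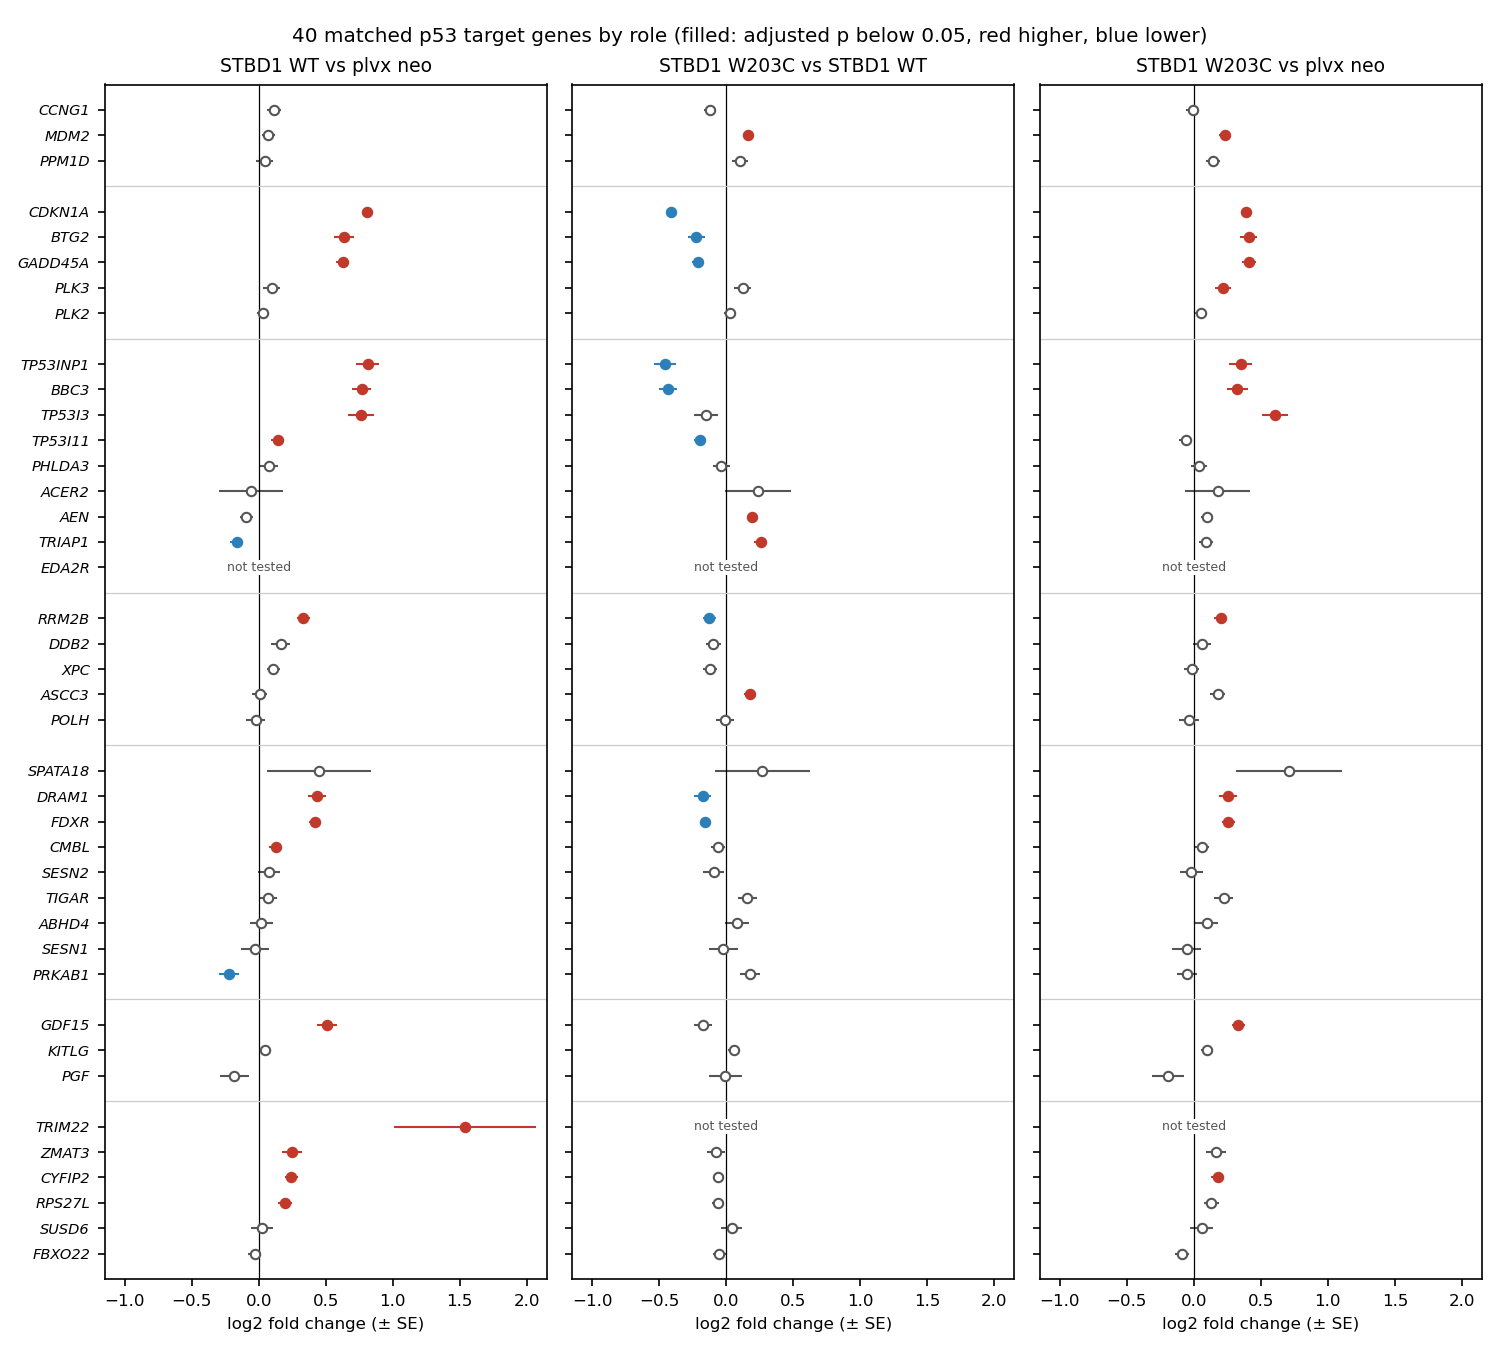
Log2 fold change (horizontal axis, ± SE) of the 40 matched members, grouped by role and separated by grey lines, in each of the 3 comparisons. Filled points have an adjusted p below 0.05, red higher and blue lower; 16 red and 2 blue points stand in the left panel, 4 red and 9 blue in the middle one, and 13 red and no blue in the right one.

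These counts depended on how transcript length was handled. RSEM gives each gene an effective length per library, which changes when reads shift between its transcripts, and entering that length as an offset left 9 members called in STBD1 WT against plvx neo, all higher (12.5% of all genes called): CDKN1A, BTG2, GADD45A, BBC3, TP53I3, TP53INP1, RRM2B, FDXR and GDF15. It left 5 in STBD1 W203C against STBD1 WT, with CDKN1A, GADD45A, BBC3 and TP53INP1 lower and TRIAP1 higher (10.5% of all genes). In STBD1 W203C against plvx neo it left 2, CDKN1A and GADD45A, both higher (0.789% of all genes). Of the 13 calls in that last comparison 8 were left in number without plvx neo 1, without plvx neo 3 or without STBD1 W203C 1.

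Of the 5 growth arrest members, CDKN1A, BTG2 and GADD45A rose in STBD1 WT and were lower in STBD1 W203C than in STBD1 WT. These 3 genes are 60% of the role, beside 13.9% of all genes called higher and 13.4% called lower in these comparisons. CDKN1A, which encodes the cyclin-dependent kinase inhibitor p21 (chr6:36676460-36687337), measured 154, 157 and 166 TPM in plvx neo, 283, 266 and 284 TPM with STBD1 WT and 211, 212 and 222 TPM with STBD1 W203C. No group overlapped another. The rise in STBD1 WT was 1.75-fold (log2 0.81, SE 0.04, adjusted p = 2.00e-12), STBD1 W203C lay below STBD1 WT (log2 −0.41, SE 0.04, adjusted p = 4.40e-08) and above plvx neo (log2 0.39, SE 0.04, adjusted p = 8.22e-08). These 3 calls held under every alternative tried except the 1.5-fold minimum, which only the rise in STBD1 WT reached. CDKN1A shares 146 exon bases with DINOL on the opposite strand, and the sources used here do not say whether the counting used strand.

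GADD45A, a growth arrest gene of the DNA damage response (chr1:67685201-67688334), gave 71.5, 69.4 and 75.6 TPM in plvx neo, 121, 113 and 113 TPM in STBD1 WT and 94.9, 108 and 97.3 TPM in STBD1 W203C. The groups again stood apart. It rose in STBD1 WT (log2 0.63, SE 0.05, adjusted p = 8.62e-09) and was lower in STBD1 W203C than in STBD1 WT (log2 −0.21, SE 0.04, adjusted p = 0.00117). Against plvx neo it was higher in STBD1 W203C as well (log2 0.41, SE 0.05, adjusted p = 8.46e-06). BTG2, an antiproliferative gene (chr1:203305491-203309602), gave 15.6, 19.4 and 18.5 TPM in plvx neo, 28.1, 23.9 and 29.7 TPM in STBD1 WT and 25.2, 23.8 and 24.7 TPM in STBD1 W203C. Both constructs lay above plvx neo, while the constructs overlapped each other in TPM. BTG2 rose by log2 0.64 (SE 0.07, adjusted p = 1.85e-06) in STBD1 WT and was higher by 0.41 (SE 0.06, adjusted p = 0.000128) in STBD1 W203C than in plvx neo. Between the constructs the difference was −0.22 (SE 0.06, adjusted p = 0.0133), a call lost without STBD1 WT 3 or without STBD1 W203C 2 (−0.30 to −0.13 over the 6 fits with 1 library left out).

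The polo-like kinases PLK2 and PLK3 moved little. PLK2, which has an exact p53 motif, had log2 fold changes of 0.03, 0.03 and 0.05 in the 3 comparisons and was called in none. PLK3 was higher in STBD1 W203C than in plvx neo (log2 0.22, SE 0.06, adjusted p = 0.0321), a call kept in 1 of the 6 fits with 1 library left out, that without STBD1 W203C 2 (0.16 to 0.24).

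**Figure D3:**
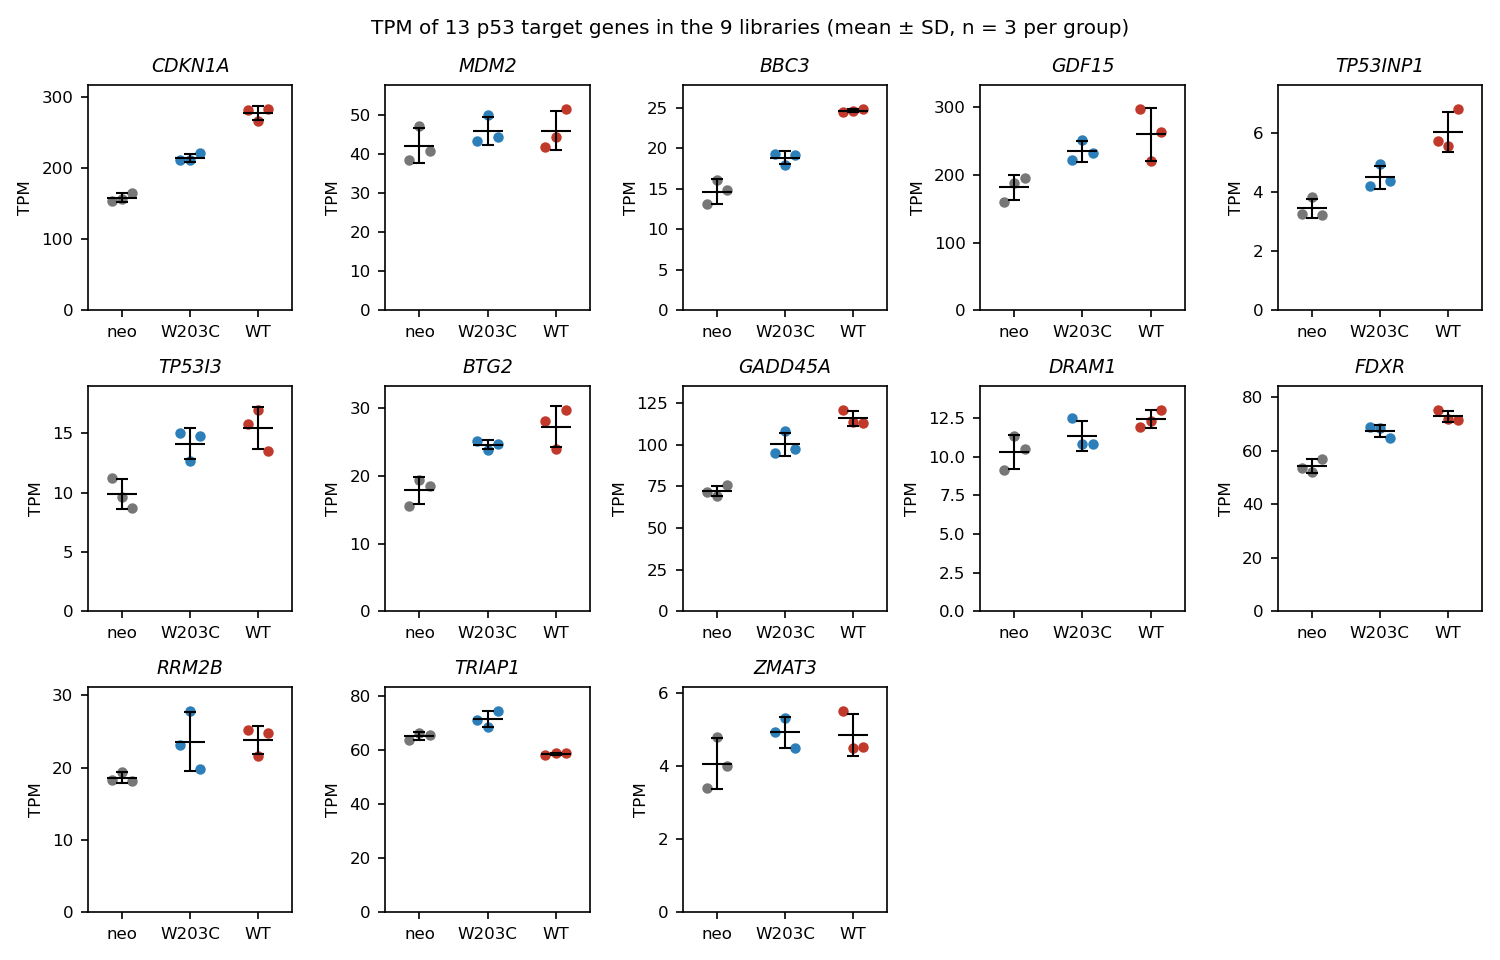
TPM (vertical axis, from 0) of 13 members in each of the 9 libraries, with 1 point per library and the mean ± SD of 3 libraries as black bars. For CDKN1A, BBC3, TP53INP1, GADD45A and FDXR the 3 groups do not overlap, with plvx neo lowest and STBD1 WT highest; TRIAP1 has its lowest values in STBD1 WT.

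Among the 8 tested members linked to cell death and survival, 4 rose and 1 fell in STBD1 WT (50% and 12.5%, beside 13.9% and 13.9% of all genes). BBC3 encodes PUMA, a BH3-only protein that triggers mitochondrial apoptosis (chr19:47220822-47232766). Its level was 13.1, 16.0 and 14.9 TPM in plvx neo, 24.5, 24.6 and 24.9 TPM in STBD1 WT and 19.3, 18.0 and 19.2 TPM in STBD1 W203C. The groups did not overlap. BBC3 rose 1.70-fold in STBD1 WT (log2 0.77, SE 0.07, adjusted p = 1.47e-07) and was lower in STBD1 W203C than in STBD1 WT (log2 −0.44, SE 0.07, adjusted p = 4.84e-05). Its excess in STBD1 W203C over plvx neo (log2 0.32, SE 0.08, adjusted p = 0.0135) was not called without plvx neo 1, plvx neo 3 or STBD1 W203C 1 (0.27 to 0.38 over the fits with 1 library left out).

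TP53INP1, a stress-induced protein that acts with p53 and in autophagy, gave 3.28, 3.84 and 3.25 TPM in plvx neo, 5.75, 5.59 and 6.84 TPM in STBD1 WT and 4.21, 4.96 and 4.40 TPM in STBD1 W203C. Again no group overlapped another. It rose 1.76-fold in STBD1 WT (log2 0.81, SE 0.08, adjusted p = 5.04e-07) and was lower in STBD1 W203C than in STBD1 WT (log2 −0.46, SE 0.08, adjusted p = 0.000217). Above plvx neo in STBD1 W203C (log2 0.35, SE 0.08, adjusted p = 0.0134), it lost that call without plvx neo 3 or STBD1 W203C 2 (0.29 to 0.43). TP53I3, a quinone oxidoreductase also known as PIG3 (chr2:24077433-24085861), gave 11.2, 9.60 and 8.74 TPM in plvx neo, 15.8, 16.99 and 13.5 TPM in STBD1 WT and 15.02, 12.7 and 14.8 TPM in STBD1 W203C. Both constructs were above plvx neo and overlapped each other. TP53I3 rose by log2 0.76 (SE 0.10, adjusted p = 7.44e-06) in STBD1 WT and by 0.61 (SE 0.10, adjusted p = 0.000232) in STBD1 W203C. The difference between the constructs, −0.15 (SE 0.09, adjusted p = 0.221), had an approximate 95% interval of −0.33 to 0.02.

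TRIAP1, a small survival protein, went the other way (chr12:120443964-120446384). It lay at 63.8, 66.5 and 65.4 TPM in plvx neo, 58.2, 58.8 and 58.7 TPM in STBD1 WT and 71.1, 68.5 and 74.5 TPM in STBD1 W203C. STBD1 WT was the lowest group with no overlap. The fall in STBD1 WT was −0.16 (SE 0.05, adjusted p = 0.0168), not called without STBD1 WT 3 (−0.17 to −0.15), and STBD1 W203C was higher than STBD1 WT by 0.26 (SE 0.05, adjusted p = 0.000761), a call held under every alternative except the 1.5-fold minimum. AEN, an apoptosis-enhancing nuclease, was likewise higher in STBD1 W203C than in STBD1 WT (log2 0.19, SE 0.04, adjusted p = 0.00127). TP53I11 was called higher in STBD1 WT than in plvx neo (log2 0.14, adjusted p = 0.0375), kept only without plvx neo 1 among the 6 fits with 1 library left out (0.11 to 0.16), and lower in STBD1 W203C than in STBD1 WT (log2 −0.20, adjusted p = 0.00312). Its effective length was 1311 bases in STBD1 W203C 1 and 2187 to 2364 bases in the other 8 libraries, and with that length as an offset the second difference became 0.079. PHLDA3, an inhibitor of Akt, and ACER2, a ceramidase, were called in no comparison. EDA2R, a receptor of the TNF family, was at most at 0.05 TPM and passed the count filter nowhere, so nothing can be said of its response at this depth.

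None of the 3 feedback genes was called in STBD1 WT against plvx neo, beside 27.8% of all genes. With 3 genes, this share cannot be set apart from that of all genes. MDM2, the ubiquitin ligase that removes p53 (chr12:68808177-68845544), gave 38.7, 47.2 and 41 TPM in plvx neo, 42.0, 44.6 and 51.7 TPM in STBD1 WT and 43.5, 50.2 and 44.6 TPM in STBD1 W203C. All 3 groups overlapped in TPM. On counts MDM2 differed by 0.07 (SE 0.05, adjusted p = 0.312) between STBD1 WT and plvx neo and was called higher in STBD1 W203C, by 0.17 (SE 0.04, adjusted p = 0.00431) over STBD1 WT and by 0.23 (SE 0.04, adjusted p = 0.00201) over plvx neo. The effective length of MDM2 was 3251 to 3592 bases in STBD1 W203C and 2680 to 3185 bases in STBD1 WT, and with it as an offset the difference between the constructs was −0.039 and that between STBD1 W203C and plvx neo 0.082, neither of them called. MDM2 also shares exon bases with 3 other measured genes. PPM1D, a phosphatase that dephosphorylates p53 and its kinases, and CCNG1, a cyclin that acts with MDM2, were called in no comparison (log2 fold changes from −0.12 to 0.14).

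Among the 5 members for DNA repair and nucleotide supply, RRM2B rose in STBD1 WT (20%, beside 13.9% of all genes called higher). It encodes the p53-inducible small subunit of ribonucleotide reductase, and measured 18.3, 19.4 and 18.1 TPM in plvx neo, 25.2, 21.6 and 24.8 TPM in STBD1 WT and 23.2, 27.9 and 19.8 TPM in STBD1 W203C. Every library with a construct lay above every plvx neo library. RRM2B rose by log2 0.33 (SE 0.05, adjusted p = 2.20e-05) in STBD1 WT. Its call in STBD1 W203C against plvx neo (log2 0.20, SE 0.05, adjusted p = 0.0133) was kept in 2 of 6 fits with 1 library left out, those without plvx neo 2 or STBD1 W203C 3 (0.17 to 0.24). The call against STBD1 WT (log2 −0.13, SE 0.05, adjusted p = 0.0478) was kept only without STBD1 WT 2 or STBD1 W203C 2 (−0.16 to −0.09). The nucleotide excision repair factors DDB2 (log2 0.16, adjusted p = 0.0851) and XPC (log2 0.11, adjusted p = 0.116) and the translesion polymerase POLH (log2 −0.02, adjusted p = 0.852) were not called in STBD1 WT against plvx neo. ASCC3, a helicase of alkylation repair and ribosome quality control, was higher in STBD1 W203C than in STBD1 WT (log2 0.18, SE 0.05, adjusted p = 0.00749).

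Of the 9 metabolic, redox and autophagy members, 3 rose and 1 fell in STBD1 WT (33.3% and 11.1%, beside 13.9% and 13.9% of all genes). FDXR, the mitochondrial ferredoxin reductase (chr17:74862497-74873031), gave 53.7, 52.0 and 57.1 TPM in plvx neo, 75.4, 71.9 and 71.5 TPM in STBD1 WT and 68.9, 68.4 and 64.9 TPM in STBD1 W203C. The groups did not overlap. It rose by log2 0.42 (SE 0.04, adjusted p = 7.91e-07) in STBD1 WT, was lower by −0.16 (SE 0.04, adjusted p = 0.00701) in STBD1 W203C than in STBD1 WT, and was 0.26 (SE 0.05, adjusted p = 0.000908) above plvx neo there. DRAM1, a lysosomal membrane protein that promotes autophagy (chr12:101877580-102012130), gave 9.11, 11.3 and 10.5 TPM in plvx neo, 11.9, 12.3 and 13.03 TPM in STBD1 WT and 12.5, 10.8 and 10.8 TPM in STBD1 W203C. STBD1 WT lay above plvx neo, and STBD1 W203C overlapped both. On counts DRAM1 rose by 0.43 (SE 0.06, adjusted p = 4.29e-05) in STBD1 WT, against 0.25 at the smallest with TPM or effective length, where it was not called. Its calls in STBD1 W203C against STBD1 WT (log2 −0.18, SE 0.06, adjusted p = 0.0407) and against plvx neo (log2 0.25, SE 0.07, adjusted p = 0.0282) were kept in 0 and in 2 of 6 fits with 1 library left out, the 2 being without plvx neo 2 or STBD1 W203C 3 (−0.20 to −0.16 and 0.23 to 0.28).

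The stress-responsive sestrins SESN1 and SESN2, TIGAR, a fructose bisphosphatase that slows glycolysis, and the lipase ABHD4 were called in no comparison, and neither was SPATA18, a mitochondrial quality control gene below 1 TPM on average. PRKAB1, a regulatory subunit of the energy sensor AMPK, was called lower in STBD1 WT on counts (log2 −0.22, SE 0.07, adjusted p = 0.0251). It was kept in 3 of 6 fits with 1 library left out (−0.26 to −0.18, lost without plvx neo 1, STBD1 WT 1 or STBD1 WT 2), and its effective length was 1375 bases in STBD1 WT 3 beside 1910 to 2216 bases in the other libraries. With that length as an offset the value was 0.054. CMBL, a hydrolase, was called higher in STBD1 WT (log2 0.13, SE 0.05, adjusted p = 0.0491), and the call was lost whichever 1 of the 6 libraries was left out (0.12 to 0.13).

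Of the 3 secreted ligands only GDF15 was called, in both constructs against plvx neo. This is 33.3%, beside 27.8% of all genes for STBD1 WT and 5.70% for STBD1 W203C. GDF15, a stress-induced ligand of the TGF-beta family (chr19:18374731-18389176), gave 160, 188 and 196 TPM in plvx neo, 297, 219 and 263 TPM with STBD1 WT and 221, 252 and 232 TPM with STBD1 W203C. All libraries with a construct were above all plvx neo libraries, and the constructs overlapped. GDF15 rose by log2 0.51 (SE 0.07, adjusted p = 3.65e-05) in STBD1 WT and was higher by 0.33 (SE 0.05, adjusted p = 0.000130) in STBD1 W203C. Between the constructs the difference was −0.17 (SE 0.07, adjusted p = 0.0657), with an approximate 95% interval of −0.31 to −0.04. The growth factors PGF and KITLG were called in no comparison.

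Of the remaining members, ZMAT3, an RNA-binding zinc finger protein with an exact p53 motif (chr3:178960121-179072215), gave 3.41, 4.80 and 3.99 TPM in plvx neo, 5.51, 4.5 and 4.51 TPM in STBD1 WT and 4.94, 5.32 and 4.49 TPM in STBD1 W203C. The groups overlapped. Its call in STBD1 WT (log2 0.25, SE 0.08, adjusted p = 0.0185) was lost without plvx neo 1, plvx neo 3 or STBD1 WT 1 (0.19 to 0.34). CYFIP2, a regulator of actin assembly, was higher in STBD1 WT (log2 0.24, SE 0.05, adjusted p = 0.000635) and in STBD1 W203C (log2 0.18, SE 0.05, adjusted p = 0.0301) than in plvx neo, the latter kept only without plvx neo 3 or STBD1 W203C 3 (0.15 to 0.22). RPS27L, a ribosomal protein gene with a close paralog that could share reads, rose in STBD1 WT (log2 0.20, SE 0.05, adjusted p = 0.00775), a call lost without plvx neo 1 (0.15 to 0.23). TRIM22, a tripartite motif protein that interferon also induces, was tested only in this comparison and had 2, 3 and 8 counts in plvx neo and 11, 18 and 9 in STBD1 WT. Its call (log2 1.54, SE 0.53, adjusted p = 0.0346) was kept only without plvx neo 3 among the 6 fits with 1 library left out (1.22 to 2.32). SUSD6 and the ubiquitin ligase subunit FBXO22 were called in no comparison.

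Read as an order of the groups, 5 of the 38 members tested throughout (CDKN1A, GADD45A, BBC3, TP53INP1 and FDXR; 13.2%) had all STBD1 W203C libraries above all plvx neo libraries and below all STBD1 WT libraries in TPM, beside 1.63% of 14821 genes. The entries STBD1 and FAM47E-STBD1 stood in the same order. Of the 39 members tested anywhere, 17 were called in no comparison. The share of all genes called in no comparison was not counted, so whether 17 is many or few cannot be said.

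MDM4, a partner of MDM2 that inhibits p53, was called in no comparison (log2 −0.12, −0.02 and −0.14). Over the 25 tested genes for p53 and its regulators, 3 rose and 5 fell in STBD1 WT (12% and 20%, beside 13.9% and 13.9% of all genes). PPP1R13L, the p53 inhibitor iASPP, rose most (log2 0.52, SE 0.06, adjusted p = 6.55e-07) and the methyltransferase PRMT5 fell most (log2 −0.30, SE 0.04, adjusted p = 7.03e-06). In TPM PPP1R13L spread widely in STBD1 WT (37.9, 50.6 and 65.7, beside 34.2, 35.7 and 37.0 in plvx neo). With STBD1 W203C PPP1R13L lay at 34.5, 26.5 and 41.7 TPM and overlapped both. In STBD1 W203C against STBD1 WT 7 were higher and 1 lower (32% called, beside 27.9% of all genes), with CREBBP, a histone acetyltransferase, at 0.30 and PPP1R13L at −0.60. Against plvx neo 3 were higher in STBD1 W203C and none was lower (12% called, beside 5.70%).

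A further list held 22 other p53 targets, chosen like the members with earlier results of these data known. Of the 19 tested, 10 were higher and none lower in STBD1 WT (median log2 0.23). That is 52.6% higher and 0% lower, beside 13.9% and 13.9% of all genes. SFN, which encodes the cell cycle inhibitor stratifin, rose most (log2 0.43, SE 0.04, adjusted p = 3.49e-07). Between the constructs 7 were lower in STBD1 W203C and 1 was higher (36.8% and 5.26%, beside 13.4% and 14.5% of all genes), with a median of −0.11. The higher gene was that of the matrix protein THBS1 at 0.27 (SE 0.08, adjusted p = 0.0107 by edgeR). In TPM the constructs overlapped for THBS1, and its mean was lower in STBD1 W203C (6.52 TPM) than in STBD1 WT (7.24 TPM). Against plvx neo 6 were higher in STBD1 W203C and 1 was lower (31.6% and 5.26%, beside 3.03% and 2.67% of all genes). The death receptor FAS led the rises at 0.41 (SE 0.09, adjusted p = 0.00621 by edgeR), and the decoy receptor TNFRSF10D was lower at −0.25.

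Of 18 mitotic genes that p21 and DREAM lower, 15 fell and none rose in STBD1 WT (median log2 −0.19). That is 83.3% lower and 0% higher, beside 13.9% and 13.9% of all genes. This list too was chosen with earlier results of these data known. The largest fall was that of cyclin A2, CCNA2, at −0.26 (SE 0.04, adjusted p = 5.34e-05 by edgeR). In STBD1 W203C against STBD1 WT 12 were higher and none lower (66.7% and 0%, beside 14.5% and 13.4% of all genes), with a median of 0.17. The mitotic kinase PLK1 led at 0.27 (SE 0.04, adjusted p = 8.10e-05 by edgeR). Against plvx neo only TOP2A, a topoisomerase, was called in STBD1 W203C, lower at −0.13 (adjusted p = 0.0457 by edgeR). That is 5.56% of the list, beside 2.67% of all genes called lower, and 3 of 18 genes had an unadjusted p below 0.05. CDKN1A was higher in that comparison. The part of p21 in the values of these mitotic genes was not tested.

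GADD45A, GDF15 and SESN2 are also known targets of ATF4, the factor of the integrated stress response, so the ATF4 list is given beside them. Of its 15 tested genes 2 rose and 9 fell in STBD1 WT (median log2 −0.52). That is 13.3% higher and 60% lower, beside 13.9% and 13.9% of all genes. Like the other lists, the ATF4 list was chosen with earlier results of these data known. Asparagine synthetase, ASNS, fell most (log2 −1.45, SE 0.04, adjusted p = 1.42e-15), and ATF3, a stress factor that p53 also induces, rose most (log2 0.53, SE 0.05, adjusted p = 1.07e-07). Between the constructs 8 were higher in STBD1 W203C and 3 lower (53.3% and 20%, beside 14.5% and 13.4% of all genes), with ASNS at 0.85 and DDIT4 at −0.31. Against plvx neo 2 were higher, led by ATF3 at 0.28, and 7 lower, led by CHAC1 at −0.68 (13.3% and 46.7%, beside 3.03% and 2.67% of all genes). GADD45A and GDF15 were called higher in both constructs than in plvx neo, while SESN2 was called in no comparison. The part of the integrated stress response in the members' values was not tested.

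**Figure D4:**
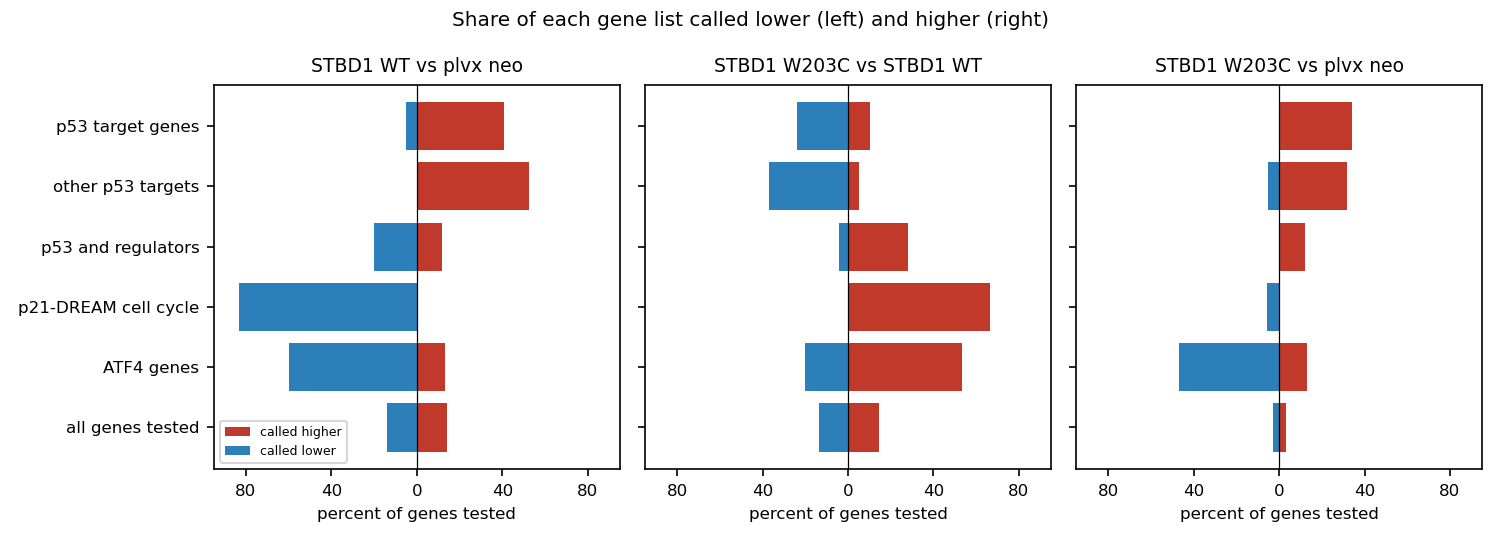
Percent of tested genes called lower (blue, left of 0) and higher (red, right of 0) in each of the 3 comparisons, for the p53 target genes described here, 4 other lists and all genes tested. In STBD1 WT against plvx neo 41% of the p53 target genes were called higher, beside 13.9% of all genes. In the same comparison 83.3% of the p21-DREAM list was called lower, beside 13.9% of all genes.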

How the data were processed

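RNA of 9 HCT116 samples was sequenced as paired-end libraries (NEBNext Ultra kit). The authors removed adapter, poly-N and low-quality reads, aligned to hg38 with STAR 2.7.1a and estimated abundance with RSEM 1.3.1 on Ensembl release 93 gene models. The deposited values used are expected counts (the sum of fractional read assignments per gene, not normalised; 92.1% of values were whole) and effective length. The deposited TPM values are RSEM's, scaled by the authors' run for transcript length and library size. A strand setting is not given in the sources used here. Gene IDs were matched to symbols for 98.9% of 58395 genes. Groups follow the sample titles.

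Expected counts were rounded, filtered by filterByExpr, scaled by TMM and tested with edgeR 4.0.16 (R 4.3.3; glmQLFit, glmQLFTest, 2-sided), 6 libraries per comparison, and p-values were Benjamini-Hochberg adjusted over all genes tested. SE is the absolute log2 fold change divided by the square root of F, and intervals are the estimate ± 1.96 SE. The biological coefficient of variation was 4.05 to 4.21%. The code was tested on simulated data. Alternatives were DESeq2 1.42.0, its size factors, limma 3.58.1 on log2(TPM + 1) and log2(TPM + 0.1) for genes of at least 1 TPM in 3 libraries, other filters, all 9 libraries, a replicate block, an effective length offset, a 1.5-fold minimum and leaving out each library. Paired libraries of 1 group differed by more than sampling noise (chi-square per gene 2.12 to 3.87), so none was a resampling of another's reads. This cannot tell separate cultures from repeat preparations of the same RNA.

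The members and gene lists were chosen with earlier results of these data known. TPM per library is given for CDKN1A, MDM2, BBC3, GDF15 and the 12 members with the largest absolute log2 fold change among called members averaging at least 1 TPM (13 in all). Exons of 17 members overlapped a measured gene on the opposite strand and those of 4 on the same strand (GENCODE v44). Single results of 2 listed genes outside the members are not reported here.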

Additional observations from a re-analysis of the deposited data

How the results depend on the processing

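Under TMM or DESeq2 size factors, without the count filter, with DESeq2, with all 9 libraries and with the replicate block, the number of members called stayed within 1.5 times that reported. It moved further with limma on log2(TPM + 1) (9, 4 and 3 members for STBD1 WT against plvx neo, STBD1 W203C against STBD1 WT and STBD1 W203C against plvx neo), on log2(TPM + 0.1) (9, 4 and 3) and on TPM with no minimum (6, 3 and 1). It also moved further with the effective length offset (9, 5 and 2) and with a 1.5-fold minimum (7, 0 and 1). That 0 is by edgeR, against 13 members called without the minimum and 18 with an unadjusted p below 0.05. The 1.5-fold minimum by definition drops called members with a smaller fold change. In the limma and offset settings calls fell over all genes too, as given below. The cause of the moves in those settings was not tested. Leaving out 1 library gave 13 to 17, 11 to 14 and 8 to 14 members, and a median log2 fold change of members of 0.098 to 0.13, −0.060 to −0.039 and 0.12 to 0.15; with the effective length offset the first 2 medians were 0.096 and −0.043. Among members, the direction reversed for PRKAB1 in STBD1 WT against plvx neo (0.036, 0.037 and 0.036 under the 3 limma fits, 0.054 with the offset). In STBD1 W203C against STBD1 WT it reversed for MDM2 (−0.039 with the offset) and TP53I11 (0.083, 0.084 and 0.083 under the limma fits, 0.079 with the offset). Signs were followed only for called values of members, and these settings take effective length into account.

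With the replicate block 18, 11 and 14 members were called; replicate numbers shared between groups did not pair the libraries (mean correlation of same-numbered deviations 0.020, −0.0091 and 0.0087). Over all genes, the effective length offset left 1907, 1582 and 119 calls beside 4254, 4202 and 859, and limma on log2(TPM + 1) left 1746, 1818 and 130, of which 50.1%, 69.5% and 73.8% were higher beside 50.02%, 51.8% and 53.2%. Over all genes, limma on log2(TPM + 0.1) left 1700, 1797 and 120 calls, and on TPM with no minimum 970, 991 and 15. Calls over all genes were not counted with the 1.5-fold minimum. Without plvx neo 3, STBD1 W203C 1 or STBD1 W203C 2 the last comparison had 459, 501 and 543 calls. Over the 44 member calls, 11 of 18, 10 of 13 and 7 of 13 were kept whichever library was left out, and 6, 3 and 1 under every alternative other than the 1.5-fold minimum. SPATA18 and EDA2R had too few counts to show changes of the size seen in CDKN1A at this depth.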
